A study of Mus musculus with 6 samples.

Results

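The 32 genes described here act on cholesterol: 18 make it, 4 sense it, 5 take it up, move it inside the cell or store it, and 5 export it or switch on export. They were chosen by name, through the NCBI Gene ID of each row in the deposited gene tables, and all 32 were found among 45679 gene symbols and passed the filter on low values (2 or more libraries at a TPM of 1 or above). TPM is a transcript abundance scaled for gene length and library, so it can be compared between genes. Messenger RNA was sequenced from ovaries of wild-type BDF1 mice, the hybrid offspring of a pair of inbred strains. Libraries came in 3 labelled groups of 2: young mice (8 weeks) injected with PBS, old mice (65 weeks) injected with PBS, and old mice (65 weeks) injected with MIT-001, a compound developed to scavenge reactive oxygen species in mitochondria. Injections went into the abdomen for 7 days, and MIT-001 was given at 0.5 mg/kg. Neither the animals behind a library nor their number is labelled, and p-values here therefore measure only the spread between these libraries, which may be technical.

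Cholesterol is built from acetyl-CoA through mevalonate, the isoprenoid diphosphates, squalene and lanosterol. When sterols in the endoplasmic reticulum run low, the escort protein SCAP carries the precursor of the transcription factor SREBP2 to the Golgi, where proteases release it. Free SREBP2 then switches on the synthesis genes, while the INSIG proteins hold SCAP back when sterols are plentiful. Oxysterols activate the LXR receptors, which switch on export. In the ovary, theca, granulosa and luteal cells turn cholesterol into steroid hormones, and they obtain it from lipoproteins through SR-B1, from stored esters and from their own synthesis. Some other genes of the pathway were not analysed here.

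Markers of ovarian cells went against the age labels, so the groups are named throughout as labelled. Whether the young PBS and old PBS labels were exchanged was not tested; an exchange would turn the sign of every difference in old PBS against young PBS, and old MIT-001 against old PBS would then differ in age as well as in treatment. The summed level of 8 oocyte markers was 413 and 442 TPM in the old PBS libraries, 272 and 33.0 TPM in the young PBS libraries, and 76.6 and 38.9 TPM in the old MIT-001 libraries. Summed over 4 plasma cell markers, the level was 1457 and 252 TPM in the young PBS libraries but 11.3 and 14.1 TPM in the old PBS libraries. No oocyte, granulosa or theca marker was at 0 in any library, with Figla as low as 0.17 TPM in young PBS replicate 2. Almost all markers of other cell types were above 0 as well, so this is only a weak check of the tissue label. In bulk tissue, fewer cells of a type and less RNA per cell cannot be told apart, which applies to every difference below. Depth was alike, at 6.34 to 7.14 aligned gigabases in each library as implied by coverage and FPKM, and 14317 to 16304 genes reached a TPM of 1. The 2 young PBS libraries stood apart from each other: the median absolute difference between replicates over the 32 genes was 0.66 on the log2 scale in young PBS, 0.16 in old PBS and 0.42 in old MIT-001.

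SREBP2 binds sterol regulatory elements in promoters together with the factors NF-Y and Sp1, so the stretch upstream of the start site was examined first. RefSeq (GRCm38.p6) gave a promoter, 250 bases before to 50 after the start, for 25 of the 32 genes. Letters were searched on both strands, and the motifs searched do not contain one another. The core of the sterol regulatory element, TCACNCCAC, was present in 1 of the 25 (4%), Hmgcs1, against 1.44% of 27025 genes with a promoter and 1.46% of those tested. The NF-Y box, CCAAT, was found in 19 of 25 (76%) against 42.7% of the tested genes. By role, it was in 14 of 15 synthesis genes (93.3%) and in 0 of 4 export and LXR genes. The Sp1 box, GGGCGG, was found in 21 of 25 (84%) against 65% of the tested genes, again in 14 of 15 synthesis genes, and in 1 of the 4 export and LXR genes. A match is a description of the letters and does not show that a factor bound there. Only these exact letters were searched, so the lack of a match does not show that an element is absent.

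The promoters below are shown because their genes differ in role: 4 synthesis enzymes with large differences between groups, the sensor Insig1, and the exporter Abca1, which lacks the NF-Y box. Each line gives the 200 bases before the start site, 5′ to 3′ on the gene's strand, with every match to a motif on either strand in capitals (ATTGG and CCGCCC are the reverse complements of the NF-Y and Sp1 boxes). In the order shown they lie on mm10 at chr13:119690151-119690350 (plus strand), chr1:169969206-169969405 (minus), chr5:4104698-4104897 (minus), chr8:64733579-64733778 (minus), chr5:28071212-28071411 (plus) and chr4:53159896-53160095 (minus). For Hsd17b7 and Abca1 the RefSeq start used lies 37 and 93 bases inside the gene span that was quantified. The end of each of these stretches therefore falls within that span.
Hmgcs1: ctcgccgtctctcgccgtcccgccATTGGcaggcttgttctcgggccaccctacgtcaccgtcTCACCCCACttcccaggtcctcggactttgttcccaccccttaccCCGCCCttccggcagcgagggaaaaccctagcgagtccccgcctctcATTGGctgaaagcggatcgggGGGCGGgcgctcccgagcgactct
Hsd17b7: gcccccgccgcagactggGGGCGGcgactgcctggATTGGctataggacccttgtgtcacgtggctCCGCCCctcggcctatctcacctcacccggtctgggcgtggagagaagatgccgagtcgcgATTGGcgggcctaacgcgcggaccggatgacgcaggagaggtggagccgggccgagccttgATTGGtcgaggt
Cyp51: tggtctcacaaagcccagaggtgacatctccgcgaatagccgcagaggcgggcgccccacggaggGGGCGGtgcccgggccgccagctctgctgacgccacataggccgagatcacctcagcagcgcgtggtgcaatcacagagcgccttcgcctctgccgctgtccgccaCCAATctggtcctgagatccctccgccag
Msmo1: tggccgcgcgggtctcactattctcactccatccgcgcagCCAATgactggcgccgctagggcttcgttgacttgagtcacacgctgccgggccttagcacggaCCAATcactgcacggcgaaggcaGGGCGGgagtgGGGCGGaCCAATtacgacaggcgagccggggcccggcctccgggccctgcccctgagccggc
Insig1: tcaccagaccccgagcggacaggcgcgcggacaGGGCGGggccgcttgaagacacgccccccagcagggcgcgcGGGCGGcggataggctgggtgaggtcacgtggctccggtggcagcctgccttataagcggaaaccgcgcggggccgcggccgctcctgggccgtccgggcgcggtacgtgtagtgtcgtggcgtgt
Abca1: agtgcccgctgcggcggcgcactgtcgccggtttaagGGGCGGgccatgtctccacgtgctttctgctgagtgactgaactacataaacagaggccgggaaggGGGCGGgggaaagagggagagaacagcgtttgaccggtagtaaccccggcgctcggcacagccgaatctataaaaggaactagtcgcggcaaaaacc
Within these 200 bases Hmgcs1 held 1 sterol element, 2 NF-Y boxes and 2 Sp1 boxes. Hsd17b7 and Msmo1 each held 3 NF-Y boxes and 2 Sp1 boxes, and Cyp51 held 1 of each. Insig1 and Abca1 held 2 Sp1 boxes and no NF-Y box in this window.

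The mevalonate steps come first in the pathway. Hmgcs1, the cytosolic HMG-CoA synthase, was at 467 and 181 TPM in young PBS, 607 and 1018 TPM in old PBS, and 533 and 393 TPM in old MIT-001. Acat2, which joins the first 2 acetyl units, was at 142 and 135 TPM in young PBS, 169 and 191 TPM in old PBS, and 182 and 105 TPM in old MIT-001; its near-identical copy Acat3 was at 19.3 to 37.8 TPM, so reads could be divided between them. Idi1, which isomerises isopentenyl diphosphate, was at 101 and 30.9 TPM in young PBS, 124 and 197 TPM in old PBS, and 134 and 80.9 TPM in old MIT-001. Both old PBS libraries lay above both young PBS libraries for each of these 3 genes, while the old MIT-001 values overlapped the old PBS values for Acat2 and Idi1. The young PBS replicate 2 was the lowest of the 6 libraries for Hmgcs1 and Idi1.

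The steps from mevalonate to farnesyl diphosphate followed. Mvk, mevalonate kinase, was at 70.8 and 62.4 TPM in young PBS, 78.1 and 80.2 TPM in old PBS, and 64.8 and 54.7 TPM in old MIT-001. Mvd, which decarboxylates mevalonate diphosphate, was at 170.3 and 78.4 TPM in young PBS, 141 and 149 TPM in old PBS, and 127 and 53.8 TPM in old MIT-001. Fdps, which makes farnesyl diphosphate and was the most abundant synthesis transcript, was at 1043 and 1747 TPM in young PBS, 1503 and 2080.2 TPM in old PBS, and 1305 and 919 TPM in old MIT-001. Mvk was higher in both old PBS libraries than in all others. For Mvd and Fdps the 2 young PBS libraries spanned the old PBS values or overlapped them, and for all 3 genes both old MIT-001 libraries lay below both old PBS libraries. Pmvk, phosphomevalonate kinase, ranged from 41.7 to 68.0 TPM with no separation of any groups.

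Squalene formation and ring closure were highest in the old PBS libraries. Sqle, squalene epoxidase (Gene ID 20775, mm10 chromosome 15, 59315092 to 59331193), was at 135 and 196 TPM in young PBS, 343 and 356 TPM in old PBS, and 147 and 144 TPM in old MIT-001. Fdft1, squalene synthase, was at 99.4 and 69.0 TPM in young PBS, 120.1 and 143 TPM in old PBS, and 88.7 and 68.1 TPM in old MIT-001, and Lss, which closes the ring to lanosterol, was at 59.6 and 28.5 TPM in young PBS, 72.9 and 69.0 TPM in old PBS, and 64.7 and 36.7 TPM in old MIT-001. In all 3 genes both old PBS libraries exceeded the other 4 libraries, and the young PBS and old MIT-001 values overlapped. Fdft1 shares 774 bases with Ctsb on the opposite strand (Ctsb at 418 to 1070 TPM), and the strand setting of the quantification is not stated, so reads of the 2 genes cannot be told apart there.

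After lanosterol, the enzyme with the widest range was Hsd17b7, a sterol ketoreductase that also converts estrone to estradiol (Gene ID 15490, chromosome 1, 169949535 to 169969242). It was at 292 and 91.7 TPM in young PBS, 806 and 952 TPM in old PBS, and 339 and 229.5 TPM in old MIT-001, a 10.4-fold range from the lowest library to the highest. Cyp51, the lanosterol demethylase, was at 132 and 79.8 TPM in young PBS, 223 and 246 TPM in old PBS, and 141 and 84.6 TPM in old MIT-001. Msmo1, a methylsterol oxidase, was at 419.9 and 459.6 TPM in young PBS, 810.3 and 788 TPM in old PBS, and 561 and 389 TPM in old MIT-001. For these 3 enzymes both old PBS libraries stood above the other 4.

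Sc5d, the lathosterol desaturase, was at 158 and 75.6 TPM in young PBS, 248 and 392 TPM in old PBS, and 197 and 99.8 TPM in old MIT-001. Nsdhl, a decarboxylating sterol dehydrogenase, was at 128 and 142 TPM in young PBS, 201 and 206 TPM in old PBS, and 142 and 120.3 TPM in old MIT-001. Tm7sf2, a sterol reductase, was at 141 and 182 TPM in young PBS, 261 and 188 TPM in old PBS, and 157 and 95.2 TPM in old MIT-001. The old PBS libraries were again above all others for these 3 genes, by a narrow margin over young PBS replicate 2 for Tm7sf2. Dhcr7, the last reductase of one branch of the pathway, was at 478 and 889 TPM in young PBS, 741 and 762 TPM in old PBS, and 519 and 299 TPM in old MIT-001, with the highest value in young PBS replicate 2 and the lowest in old MIT-001 replicate 2. Ebp, a sterol isomerase, stayed between 92.2 and 133 TPM and separated no groups.

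**Figure D1:**
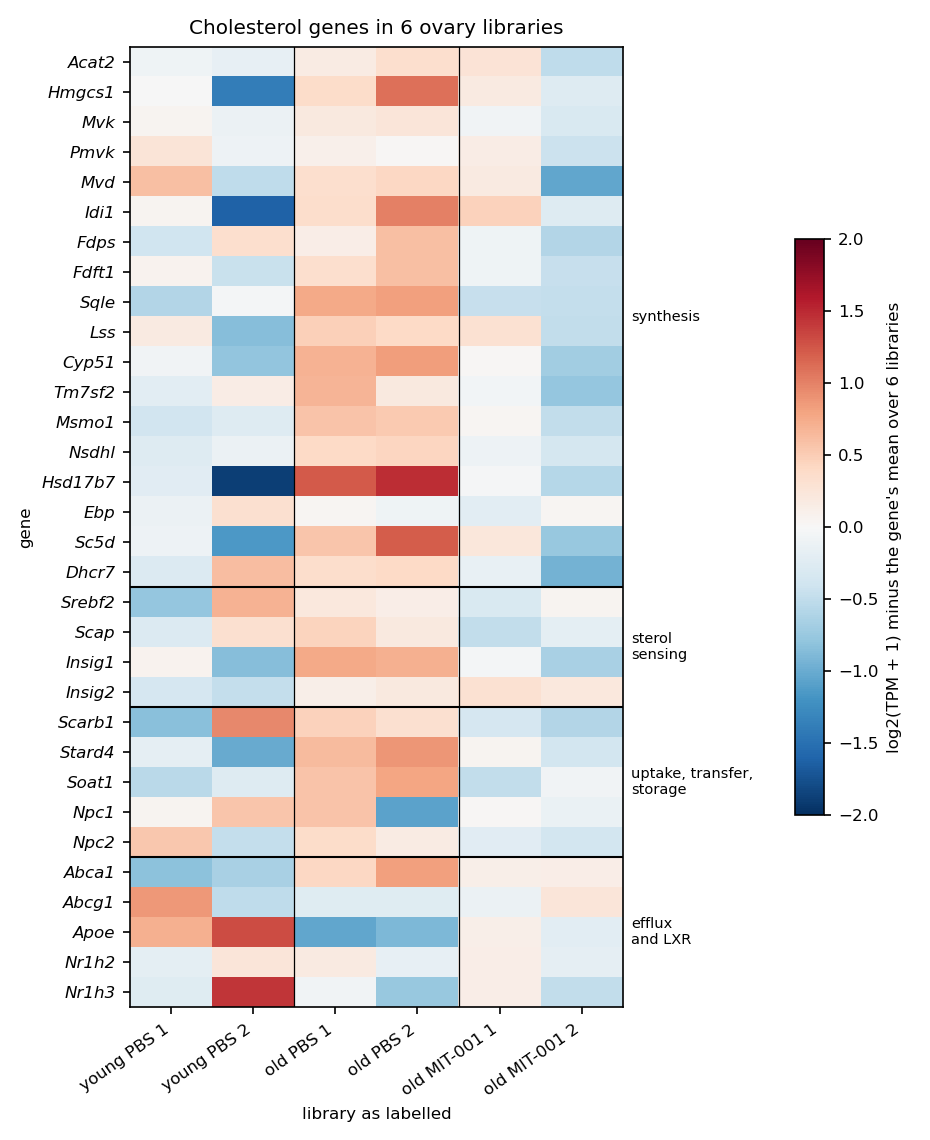
Level of each of the 32 genes in the 6 libraries, as log2(TPM + 1) minus the gene's mean over the libraries, with genes in rows ordered by role and libraries in columns. Most synthesis rows are highest in the 2 old PBS columns, and Apoe is lowest there (491 and 541 TPM).

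Among the sensors, the INSIG genes differed in their order across groups. Insig1, itself a target of SREBP2, was at 110.3 and 57.4 TPM in young PBS, 177 and 171 TPM in old PBS, and 101 and 66.4 TPM in old MIT-001. Insig2, the other INSIG gene, was at 29.4 and 26.8 TPM in young PBS, 40.8 and 43.3 TPM in old PBS, and 46.5 and 43.4 TPM in old MIT-001. Insig1 was high in the old PBS libraries alone, with the other groups overlapping, whereas Insig2 was low in both young PBS libraries and high in all 4 libraries labelled old. Srebf2, which encodes SREBP2, was at 60.3 and 167 TPM in young PBS, 119 and 113 TPM in old PBS, and 83.1 and 107 TPM in old MIT-001. Scap was at 236 and 359.7 TPM in young PBS, 392 and 329 TPM in old PBS, and 204 and 249.6 TPM in old MIT-001. Young PBS values of Srebf2 lay on both sides of all 4 other libraries, and for Srebf2 and Scap both old MIT-001 libraries were below both old PBS libraries.

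Uptake, transfer and storage held the most abundant transcript of the 32. Scarb1, which encodes the HDL receptor SR-B1, was at 1954 and 6802 TPM in young PBS, 4816 and 4354 TPM in old PBS, and 2772 and 2315 TPM in old MIT-001. Soat1, which esterifies cholesterol for storage, was at 269 and 327 TPM in young PBS, 579 and 676 TPM in old PBS, and 276 and 372 TPM in old MIT-001. Stard4, a carrier of sterol between membranes, was at 26.2 and 14.5 TPM in young PBS, 46.9 and 56.1 TPM in old PBS, and 31.0 and 23.0 TPM in old MIT-001. Both old PBS libraries exceeded the other 4 for Soat1 and Stard4, while the young PBS libraries of Scarb1 were the lowest and the highest of the 6. Npc2, which binds cholesterol in the lysosome, was at 466 and 231 TPM in young PBS, 414 and 360.5 TPM in old PBS, and 276 and 248 TPM in old MIT-001. Npc1, the lysosomal membrane partner, was at 69.7 and 99.3 TPM in young PBS, 101 and 31.7 TPM in old PBS, and 68.4 and 61.2 TPM in old MIT-001. The old PBS libraries of Npc1 were themselves the extremes of the 6, and Npc1 overlaps Rmc1 on the opposite strand by 8982 bases (Rmc1 at 21.2 to 37.1 TPM), which without a stated strand setting leaves their shared reads unresolved.

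Export genes did not share one order across the groups. Apoe, the apolipoprotein of cholesterol-carrying particles (Gene ID 11816, chromosome 7, 19696244 to 19701310), was at 1647 and 2499 TPM in young PBS, 491 and 541 TPM in old PBS, and 1091 and 868 TPM in old MIT-001. Abca1, the transporter that loads cholesterol onto apolipoproteins (Gene ID 11303, chromosome 4, 53030789 to 53159988), was at 13.1 and 15.1 TPM in young PBS, 32.4 and 43.4 TPM in old PBS, and 26.1 and 26.4 TPM in old MIT-001. The 3 groups did not overlap for either gene, with the order young PBS, old MIT-001, old PBS from high to low for Apoe and from low to high for Abca1. Abcg1, a transporter that exports to HDL, was at 12.7 and 4.28 TPM in young PBS, 5.39 and 5.40 TPM in old PBS, and 5.94 and 7.96 TPM in old MIT-001. Nr1h3, which encodes LXR alpha, was at 15.3 and 51.1 TPM in young PBS, 17.4 and 10.5 TPM in old PBS, and 20.2 and 12.8 TPM in old MIT-001. Both had 1 young PBS library well above the other 5, and it was a different replicate in each. Nr1h2, which encodes LXR beta, ranged only from 79.6 to 108 TPM.

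**Figure D2:**
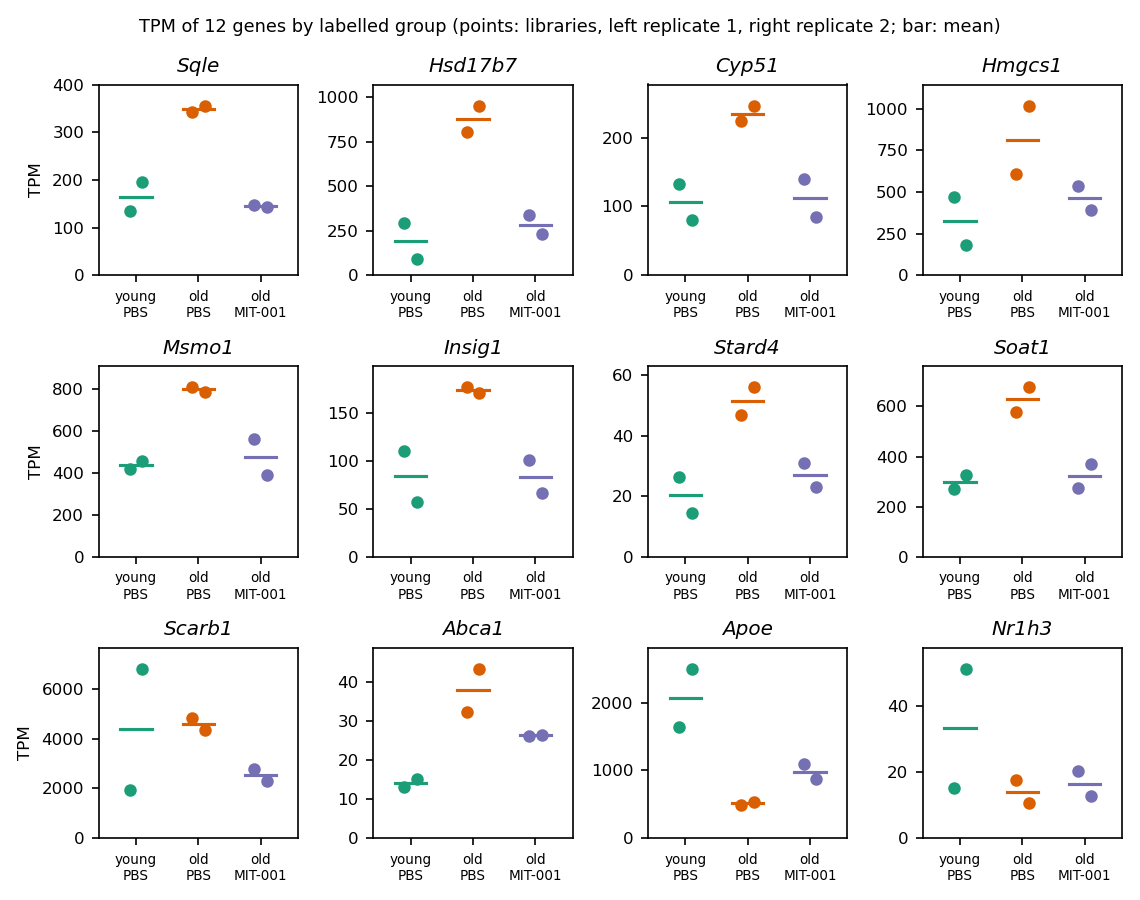
TPM of selected genes of each role in the 6 libraries, with 1 point per library, a bar at the group mean, the 3 groups on the x axis and each y axis starting at 0. The 2 old PBS points lie above the 4 others for Sqle (343 and 356 TPM) and Hsd17b7 (806 and 952 TPM), and below them for Apoe.

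The first comparison, old PBS against young PBS, asks what differs with the age label. Most synthesis enzymes, Insig1 and Insig2, the carrier Stard4, the storage enzyme Soat1 and the transporter Abca1 had higher values in old PBS, and Apoe had lower ones. Levels were compared as log2(TPM + 1) with limma over 16473 genes, and p-values were adjusted by the Benjamini-Hochberg method over all of them. None of the 32 genes passed an adjusted p of 0.05 (smallest 0.155), against 0.0364% of all genes (6 genes). At an unadjusted p below 0.05, 14 of 32 were higher in old PBS, against 14.6% of all genes, and 1 of 32 was lower, against 3.55%. The number higher was 8 of 32 on FPKM, beside 1132 of 14548 genes tested on that scale. With each library centred on its median it was 7 of 32, beside 738 of 16473 genes, and the synthesis median was then 0.31. The libraries did not overlap for 18 of 32 genes higher in old PBS, against 38.1% of all genes, and for 1 of 32 lower, against 11%. Positive log2 differences numbered 25 of 32 with a median of 0.43, beside 68.1% positive and a median of 0.23 over all genes.

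Synthesis genes made up most of these. Their differences were positive for 16 of 18 with a median of 0.63, beside 68.1% positive and a median of 0.23 over all genes. Higher without overlap were 13 of 18, beside 38.1% of all genes, and 9 of 18 were higher at an unadjusted p below 0.05, beside 14.6%. The largest was Hsd17b7, at 2.41 ± 0.54 (SE) on the log2 scale (unadjusted p = 0.00414, adjusted p = 0.21 by limma). Sqle differed by 1.10 ± 0.24 (adjusted p = 0.21), Sc5d by 1.51 ± 0.49 (adjusted p = 0.229) and Cyp51 by 1.18 ± 0.34 (adjusted p = 0.224). Idi1 at 1.46 ± 0.58, Hmgcs1 at 1.43 ± 0.51, Msmo1 at 0.86 ± 0.26, Fdft1 at 0.66 ± 0.26 and Nsdhl at 0.59 ± 0.20 completed the 9. Along the pathway, 4 of 7 mevalonate and isoprenoid genes, 3 of 3 squalene and ring closure genes and 6 of 8 later genes were higher in old PBS without overlap, beside 38.1% of all genes. Pmvk and Ebp were the exceptions in sign, at -0.02 ± 0.26 and -0.12 ± 0.23.

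The other roles were divided. Insig1 differed by 1.12 ± 0.36 (adjusted p = 0.229) and Insig2 by 0.56 ± 0.19 (adjusted p = 0.237), while Srebf2 differed by 0.20 ± 0.46 and Scap by 0.30 ± 0.28. Stard4 was at 1.35 ± 0.33 (adjusted p = 0.212) and Soat1 at 1.07 ± 0.26 (adjusted p = 0.212), but Scarb1 was at 0.33 ± 0.63, an error larger than the difference. For the exporters, Apoe was lower in old PBS by a log2 difference of -1.97 ± 0.32 (unadjusted p = 0.000721, adjusted p = 0.155) and Abca1 was higher by 1.35 ± 0.24 (adjusted p = 0.161). Apoe and Abca1 thus had the smallest p-values of the 32 and opposite signs. Nr1h3 was at -1.001 ± 0.59 and Abcg1 at -0.41 ± 0.48, and neither separated the groups.

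Levels of cell type markers moved with this comparison. Oocyte markers were higher in old PBS for 8 of 8 (median 2.05) and plasma cell markers lower for 4 of 4 (median -4.03), with the sums given above. All 8 macrophage markers were lower in old PBS (median -2.44, of which C1qa and C1qc passed the adjusted threshold), with summed levels of 827 and 842 TPM in young PBS and 134 and 153 TPM in old PBS. All 8 granulosa markers were higher (median 1.40, Inhba past the threshold), with sums of 2551 and 2578 against 5455 and 6780 TPM, and all 5 theca and steroidogenic markers were higher (median 1.37), with sums of 9145 and 14884 against 14387 and 14374 TPM. Of all these markers, Ighg2c, a plasma cell gene, was at 0 in old PBS replicate 1 and no other was at 0 in any library. Macrophages are known for high Apoe, and granulosa and theca cells for cholesterol use, as background, and the part of these cells in the differences was not tested.

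The count past the adjusted threshold depended on young PBS replicate 1. Without it, 7 of the 32 passed the adjusted threshold (Hmgcs1, Idi1, Sqle, Hsd17b7, Insig1, Stard4 and Apoe), when 5.75% of all genes passed, and Hsd17b7 was at an adjusted p of 0.0367, within a range of 0.0367 to 0.867 over the alternatives. Without young PBS replicate 2 none of the 32 passed. With 1 library left out at a time, the synthesis median ran from 0.63 to 0.81. The lower end is the value from all libraries, because leaving out an old MIT-001 library cannot change this comparison. The counts at an unadjusted p below 0.05 also varied with the library left out, and no share of all genes was computed beside them.

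The second comparison, old MIT-001 against old PBS, addresses the treatment, and it shares the old PBS libraries with the first, so the signs of the 2 comparisons are not independent. Synthesis genes were lower in old MIT-001 than in old PBS, Apoe was higher, and the others were divided. None of the 32 passed the adjusted threshold by limma (smallest 0.141), against 0.0182% of all genes (3 genes). At an unadjusted p below 0.05, 10 of 32 were lower, against 4.36% of all genes, and 1 of 32 was higher, against 7.45%. Without overlap 22 of 32 were lower, against 24.2% of all genes, and 3 of 32 were higher, against 27.2%. The median log2 difference over the 32 was -0.65 and 5 were positive, beside a median of 0.03 and 53.5% positive over all genes.

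All 18 synthesis genes had negative differences, with a median of -0.76, beside 53.5% positive and a median of 0.03 over all genes. Lower without overlap were 14 of 18, beside 24.2% of all genes, and 7 of 18 were lower at an unadjusted p below 0.05, beside 4.36%. Sqle differed most by p-value, at -1.26 ± 0.24 (unadjusted p = 0.00181, adjusted p = 0.141 by limma). Hsd17b7 was at -1.65 ± 0.54 (adjusted p = 0.318), Cyp51 at -1.10 ± 0.34 (adjusted p = 0.303) and Nsdhl at -0.64 ± 0.20 (adjusted p = 0.295). Tm7sf2 was at -0.85 ± 0.32, Msmo1 at -0.77 ± 0.26 and Fdft1 at -0.75 ± 0.26. Lower without overlap were 4 of 7 mevalonate and isoprenoid genes, 3 of 3 squalene and ring closure genes and 7 of 8 later genes, beside the same 24.2%. Ebp had the smallest difference, at -0.06 ± 0.23. Old MIT-001 replicate 2 was the lower replicate for 17 of the 18, so the size of the differences varied with the library.

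Outside synthesis, Soat1 was at -0.96 ± 0.26 (adjusted p = 0.244), Insig1 at -1.08 ± 0.36 (adjusted p = 0.329) and Stard4 at -0.91 ± 0.33 (adjusted p = 0.361), all lower in old MIT-001. Scarb1, Npc2, Scap and Srebf2 were lower without overlap, at -0.85 ± 0.63, -0.56 ± 0.36, -0.67 ± 0.28 and -0.29 ± 0.46. Insig2 was at 0.09 ± 0.19, with a 95% interval of -0.38 to 0.56. Apoe was the 1 gene higher at an unadjusted p below 0.05, at 0.92 ± 0.32 (adjusted p = 0.342), and Abca1 was at -0.50 ± 0.24 (adjusted p = 0.499). Npc1 was at 0.19 ± 0.52 on the log2 scale although its mean TPM was lower in old MIT-001 (64.8 against 66.3 TPM).

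**Figure D3:**
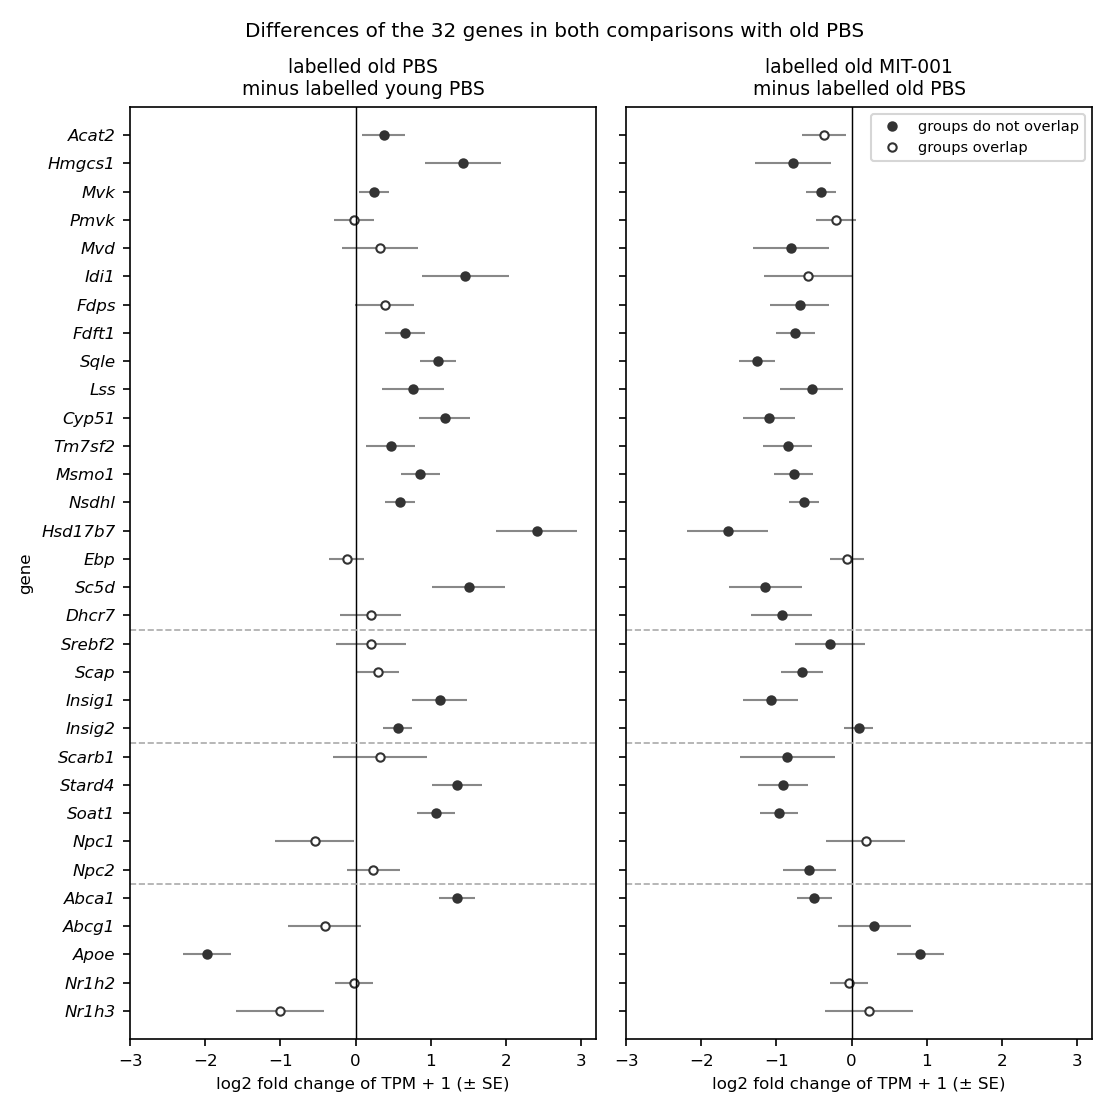
Log2 difference of each gene with its standard error in 2 comparisons, old PBS minus young PBS and old MIT-001 minus old PBS, which share the old PBS libraries (filled points, groups do not overlap, open points, groups overlap). Hsd17b7 has the largest positive difference in the first (2.41) and the largest negative one in the second (-1.65), and Apoe lies on the other side of 0 in each.

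Beside these values, the granulosa markers were lower in old MIT-001 for 8 of 8 (median -1.41, sums 1870 and 2853 TPM) and the theca and steroidogenic markers for 5 of 5 (median -1.26, sums 9438 and 7188 TPM). Oocyte markers were lower for 8 of 8 (median -2.67). Macrophage markers were higher for 8 of 8 (median 1.35, sums 384 and 346 TPM), and plasma cell markers for 4 of 4 (median 3.53, sums 979 and 106 TPM). The 4 oviduct markers summed to 697 and 395 TPM in old MIT-001, against 31.7 to 151 TPM in the other libraries, and the 6 surface epithelium markers to 608 and 647 TPM, against 157 to 350 TPM. The 6 adipocyte markers summed to 95.9 and 111 TPM in old MIT-001 and to 28.9 and 46.7 TPM in old PBS. In young PBS their sums were 315 and 57.3 TPM. Of the 4 adipocyte markers tested, 3 were higher in old MIT-001 than in old PBS and 1 was lower. The part of these cells in the differences was not tested. Fitted on the 4 old libraries alone, Sqle (adjusted p = 0.0325) and Hsd17b7 (adjusted p = 0.0456) passed, when 2.16% of all genes passed. Leaving out a young PBS library cannot change a difference between the old groups, so Sqle and Hsd17b7 then stayed at -1.26 and -1.65. With any 1 library left out, the synthesis median ran from -0.97 to -0.50. Fewer of the 32 were lower at an unadjusted p below 0.05 without an old PBS library or old MIT-001 replicate 2. Apoe was no longer past that p without old PBS replicate 2 or either old MIT-001 library. No share of all genes at that p was computed for these fits. Over all alternatives the adjusted p of this comparison ran from 0.0323 to 0.773 for Sqle and from 0.0434 to 0.911 for Hsd17b7.

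**Figure D4:**
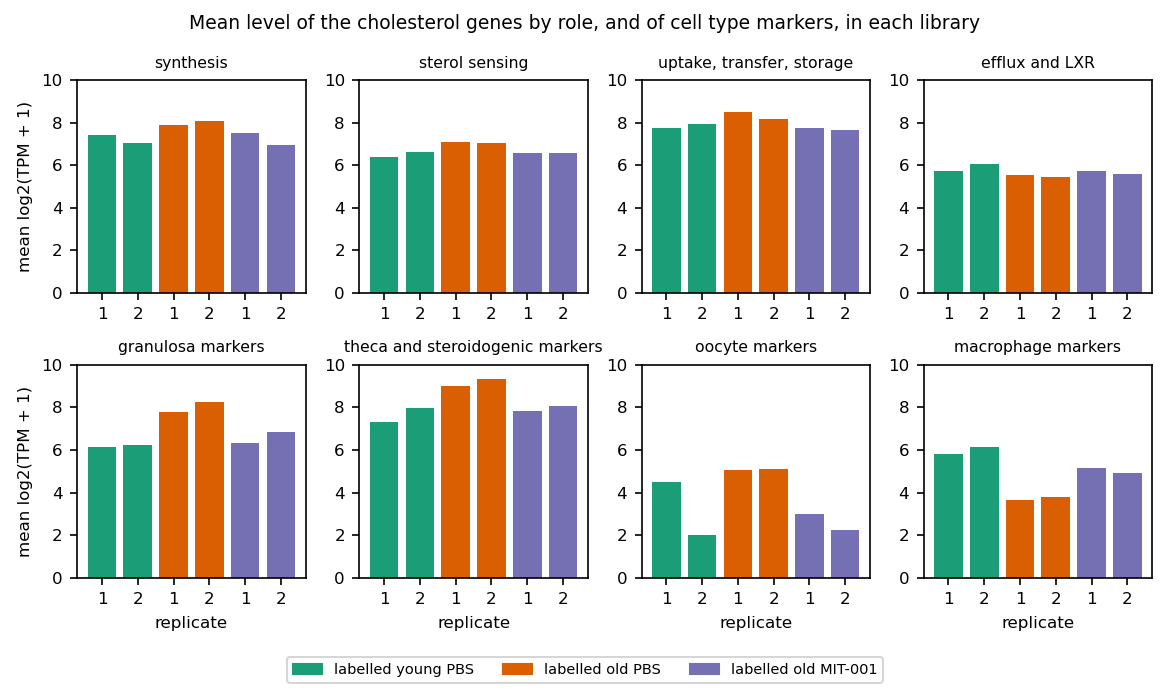
Mean log2(TPM + 1) of the genes of each role and of cell type markers in the 6 libraries, as bars starting at 0 and coloured by group. The synthesis mean was 7.90 and 8.06 in old PBS, 7.39 and 7.03 in young PBS and 7.51 and 6.95 in old MIT-001, and the granulosa mean was also highest in old PBS.

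The third comparison, old MIT-001 against young PBS, sets the treated group beside the young label and shares a group with each of the others. On TPM, Insig2 and Abca1 had higher values and Apoe lower ones in old MIT-001, while the synthesis genes overlapped. None of the 32 passed the adjusted threshold (smallest 0.163), against 0% of all genes by limma, while 2954 genes had an unadjusted p below 0.05. At that unadjusted p, 2 of the 32 were higher, against 17.1% of all genes, and 1 was lower, against 0.813%. On FPKM these counts were 1 higher and 1 lower, beside 1714 higher and 343 lower of 14548 genes. After median centring they were 0 higher and 5 lower, beside 1037 and 1311 of 16473 genes. After quantile normalization they were 0 and 0, beside 1319 and 759 of 16473. Without overlap 2 of 32 were higher, against 37.3% of all genes, and 2 of 32 were lower, against 6.56%. Insig2 was at 0.66 ± 0.19 (adjusted p = 0.17), Abca1 at 0.86 ± 0.24 (adjusted p = 0.163) and Apoe at -1.06 ± 0.32 (adjusted p = 0.175), and Npc1 was lower without overlap, at -0.36 ± 0.52. For synthesis, 8 of 18 differences were positive with a median of -0.07, beside 69.3% positive and a median of 0.24 over all genes. All 18 overlapped, beside 9251 of 16473 genes. The interval of Sqle was -0.74 to 0.43 and that of Hsd17b7 -0.56 to 2.08 on the log2 scale, and both include 0. With 1 library left out at a time, the synthesis median ran from -0.22 to 0.12. The counts at an unadjusted p below 0.05 varied with the library left out, and no share of all genes was computed beside them.

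Scaling shifted all 3 comparisons. The share of higher genes among those at an unadjusted p below 0.05 was 80.5%, 63.1% and 95.5% in the 3 comparisons on TPM, and 62.6%, 61% and 83.3% on FPKM. With each library centred on its median it was 36.2%, 52.4% and 44.2%, and after quantile normalization 52.7%, 45.6% and 63.5%. Centring moved the median of all genes from 0.228 to -0.093 in the first comparison, from 0.035 to -0.059 in the second and from 0.243 to -0.172 in the third. In the first comparison the synthesis genes were positive for 16 of 18 on TPM, 16 on FPKM, 14 after centring and 16 after quantile normalization. In the second, 0 of 18 were positive under each of the 4 scalings. In the third, 8, 5, 3 and 7 were positive, so no direction is given for it.

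Other genes of the pathway, from lists written with earlier results of these data known, gave the following counts, and none passed the adjusted threshold in any comparison. Of 16 further SREBP targets and processing genes, 13 were positive in old PBS against young PBS (median 0.51) and 7 had an unadjusted p below 0.05, all higher, beside 68.1% positive (median 0.23) and 14.6% higher at that p over all genes. Fads2, a fatty acid desaturase, was at 1.46 ± 0.23 (adjusted p = 0.155), Elovl6, a fatty acid elongase, at 2.23 ± 0.49, and the desaturases Scd1 and Scd2 at 1.15 ± 0.29 and 1.09 ± 0.27. In old MIT-001 against old PBS, 15 of the 16 were negative (median -0.39) and 5 were lower at an unadjusted p below 0.05, beside 4.36% lower at that p and 53.5% positive over all genes, with Fads2 at -1.26 ± 0.23 (adjusted p = 0.127), Fads1 at -1.09 ± 0.31, Scd1 at -0.996 ± 0.29 and Acaca, the first enzyme of fatty acid synthesis, at -0.82 ± 0.24. The named genes act in the synthesis and desaturation of fatty acids.

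Of 7 further LXR targets and oxysterol enzymes, 7 were negative in the first comparison (median -0.39) and 6 were positive in the second (median 0.80), beside 68.1% and 53.5% positive over all genes. At an unadjusted p below 0.05, 1 was lower in the first, against 3.55% of all genes, and 3 were higher in the second, against 7.45%. Pltp, the phospholipid transfer protein, was at -1.75 ± 0.33 in the first (adjusted p = 0.184) and at 1.30 ± 0.33 in the second. Mylip, which degrades lipoprotein receptors, was at 0.81 ± 0.28 and Cyp7b1, an oxysterol hydroxylase, at 0.92 ± 0.33 in the second. Among 8 genes of sterol transfer and ester hydrolysis, 6 were positive in the first and 3 in the second, beside the same 68.1% and 53.5%. At an unadjusted p below 0.05, 2 were higher in the first, against 14.6% of all genes, and 1 was lower in the second, against 4.36%. Gramd1b, a transporter of plasma membrane cholesterol, was at 1.22 ± 0.30 and -1.35 ± 0.30 in the first and second comparisons. Nceh1, an ester hydrolase, was at 0.67 ± 0.23 in the first. Of 6 other lipoprotein and scavenger receptors, 4 were positive in the first and 3 in the second. At an unadjusted p below 0.05, 2 were higher and 1 lower in each. Over all genes, 14.6% were higher and 3.55% lower at that p in the first, and 7.45% and 4.36% in the second. Lrp8, an ApoE receptor, was at 1.92 ± 0.30 (adjusted p = 0.155 by limma) and -1.38 ± 0.30. Vldlr was at 0.76 ± 0.22 in the first, and Olr1, a scavenger receptor, at -1.01 ± 0.41 in the first. Olr1 and Msr1, another scavenger receptor, were at 1.39 ± 0.41 and 0.98 ± 0.36 in the second.

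The genes that use cholesterol for steroids had medians below those of all genes in the 3 comparisons. Their median log2 difference was -0.18, -0.18 and -0.32, beside 0.23, 0.03 and 0.24 over all genes. None of the 5 (Star, Cyp11a1, Tspo, Fdx1 and Fdxr) had an unadjusted p below 0.05 in any comparison. Over all genes, 14.6%, 7.45% and 17.1% were higher at that p, and 3.55%, 4.36% and 0.813% were lower. Cyp11a1, which cleaves the cholesterol side chain, was at 9021 and 20654 TPM in young PBS, 17237 and 15034 TPM in old PBS, and 11469 and 12796 TPM in old MIT-001. As with Scarb1, the young PBS libraries were the lowest and the highest of the 6.

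In old MIT-001 against young PBS, Vldlr, a lipoprotein receptor, was at 1.06 ± 0.22 (adjusted p = 0.161), Ggps1, a branch-point isoprenoid enzyme, at 1.18 ± 0.39, Mbtps2, a protease that releases SREBP, at 1.00 ± 0.31, and Gramd1c at 0.91 ± 0.33. These 4 were the only genes of the further lists at an unadjusted p below 0.05 in that comparison, and all were higher. They were 2 of 16 SREBP genes, 1 of 8 transfer and hydrolysis genes and 1 of 6 receptors. The 7 LXR and oxysterol genes and the 5 steroid genes held none. Over all genes, 17.1% were higher at that p.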

How the data were processed

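RNA of 6 mouse ovary libraries was sequenced with a SMARTer mRNA kit, per the labels' protocols. Per the submitters' processing notes, reads were handled with Trimmomatic, HISAT2 and StringTie on mm10; the sources used here give no version, annotation or strand setting. Per the file headers, the gene tables held TPM, which was analysed as deposited. The FPKM that the authors deposited in the same tables served as an alternative, and the deposited coverage signal served only to estimate depth. No read counts were used, so the error of a value is that between replicate libraries. Symbols came from a RefSeq table (GRCm38.p6) by Gene ID, and the 98 rows per library without a match (0.0145% to 0.0301% of the TPM sum) entered no test.

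The 16473 genes that reached a TPM of 1 in 2 or more libraries were analysed as log2(TPM + 1), a scale that understates changes of low genes. The 3 group means were estimated jointly from the 6 libraries in limma 3.58.1 (under R 4.3.3), using its intensity trend (3 residual and 3.12 prior degrees of freedom), and tested two-sided with Benjamini-Hochberg adjustment over all genes and a threshold of 0.05. The procedure was tested on simulated data. The 32 genes, lists and promoter motifs were chosen with earlier results of these data known. Values in every library were given for genes whose groups did not overlap in a comparison, the 3 largest differences of a role and genes at an unadjusted p below 0.05, and up to 4 genes per further list were named by smallest p. Alternatives were FPKM, quantile normalization, median centring, a pseudocount of 0.1, a filter at 5 TPM or none, the compared libraries alone, a replicate block and leaving out each library.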

Additional observations from a re-analysis of the deposited data

How the results depend on the processing

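Values follow the order old PBS against young PBS (the first), old MIT-001 against old PBS (the second) and old MIT-001 against young PBS (the third). No gene of the 32 with an unadjusted p below 0.05 (15, 11 and 3) changed sign under 14 alternatives, while 12 of 17, 6 of 21 and 22 of 29 of the others did. For the genes below that p, the groups did not overlap. A changed pseudocount or filter, the replicate block and the use of fewer libraries could therefore not turn their sign. Only FPKM, median centring and quantile normalization could have done so. Genes past the adjusted threshold, 6 in the first and 3 in the second, became 1 and 0 with no filter, 11 and 1 on FPKM, and 15 and 1 after median centring. After quantile normalization the first gave 17, and with only the compared libraries the counts were 0 and 356. In the second, 2 of the 32 then passed, beside 2.16% of all genes, and in the third none of the 32 was lower at an unadjusted p below 0.05. Of the 32, those higher at an unadjusted p below 0.05 in the first numbered 8 on FPKM and 7 after centring. Over all genes these numbers were 1132 of 14548 and 738 of 16473. In the third, 1 was higher on FPKM, 0 were higher and 5 lower after centring, and 0 were higher and 0 lower after quantile normalization. The numbers over all genes for the third are given above. Median differences in the first were 0.31 (synthesis), 0.11 (sensing) and 0.0078 (uptake, transfer and storage) after centring, 0.27 and 0.18 (sensing, uptake) on FPKM, and 0.29 and 0.60 after quantile normalization. In the third they were -0.48, -0.44 and -0.74 after centring, and -0.18 and -0.48 (sensing, uptake) on FPKM. The median ratio of TPM to FPKM was 1.89 in young PBS replicate 1, 2.26 in young PBS replicate 2 and 2.29 to 2.31 in the old libraries. TPM and FPKM therefore scale young PBS replicate 1 differently against the rest. The cause of this and of the other shifts was not tested.

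The labels do not say that replicate numbers mark a pairing, and replicate 1 minus replicate 2 correlated at 0.007 (young and old PBS), 0.239 (young PBS and old MIT-001) and 0.175 (old PBS and old MIT-001) over genes, so the numbers were not treated as pairs and a pairing is not excluded. With the number as a block, 1 gene passed in the first and 0 in the second. Leaving out 1 library gave 0 to 948 genes past the threshold in the first (0 to 7 of the 32), 0 to 372 in the second (0 to 2 of the 32) and 0 in the third. Of the 32, 5 to 16 were higher and 1 to 3 lower in the first, 0 to 1 higher and 2 to 18 lower in the second, and 0 to 6 higher and 0 to 7 lower in the third. These counts of higher and lower genes were taken at an unadjusted p below 0.05. No share of all genes at that p was computed for these fits. The counts therefore cannot be judged against all genes, and no conclusion is drawn from them. Medians are given for synthesis, sensing, uptake and export in turn. In the first they ran from 0.63 to 0.81, 0.31 to 0.63, 0.26 to 0.94 and -0.41 to -0.16. They ran from -0.97 to -0.50, -0.63 to -0.32, -0.85 to -0.71 and -0.11 to 0.30 in the second, and from -0.22 to 0.12, -0.082 to 0.26, -0.40 to 0.027 and -0.30 to 0.07 in the third. Leaving out a library of the group not compared cannot change a median. The 0.63 of synthesis in the first and the -0.85 of uptake in the second are such unchanged values. A group left with 1 library was assumed to vary like the others.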
